A study of Caenorhabditis elegans with 11 samples.

Results

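The 10 genes described here act in moulting or in the extracellular matrix on the outer (apical) face of the skin of the nematode Caenorhabditis elegans. They are the matrix genes noah-1 (C34G6.6), noah-2 (F52B11.3) and fbn-1 (ZK783.1), the moulting genes mlt-8 (W08F4.6), mlt-10 (C09E8.3) and mlt-11 (W01F3.3), the protease genes nas-36 (C26C6.3) and nas-37 (C17G1.6), and the collagen genes bli-1 (C09G5.6) and bli-2 (F59E12.12). They were picked by gene symbol. Each symbol named 1 transcript cluster, the group of probes that stands for a gene, out of 29317 on the array. All 10 clusters passed the filter on low values, which left 20291 clusters for testing. Levels are log2 values made by RMA (robust multi-array average), so a difference of 1 is a doubling, and levels of different genes are not set against each other because their probes differ.

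RNA came from whole wild-type N2 worms, the usual laboratory strain. Larvae of 16 to 18 h after hatching spent 48 h at 20 °C in S medium with 25 uM of a betalain, a plant pigment in which betalamic acid is joined to an amine, and the labels call the animals young adults at 3 days. There were 3 arrays for indoline carboxylic acid-betacyanin (indoline-betacyanin below), 3 for phenylalanine-betaxanthin, 3 for indicaxanthin, which is proline-betaxanthin, and 2 for the untreated control. The labels number the arrays of a group as independent trials without saying what a trial shared, and what the p-values reflect is the spread between these arrays, which may be technical. The 3 comparisons with control share the same 2 control arrays. Where the arrays of 2 groups are said to lie apart or to overlap, this describes the readings only. With 3 arrays against 2, groups can lie apart without a true difference, and the share of all clusters that did so was not counted.

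The cuticle of C. elegans is a collagen coat secreted by the epidermis, and it is rebuilt and shed at the end of every larval stage. Before each moult the epidermis lays down a short-lived precuticle, then new collagens, while proteases loosen the old coat and protease inhibitors and cross-linking enzymes act on the new one. Many of these genes switch on and off once per larval stage under a shared set of transcription factors, and the cycle ends when the worm becomes an adult.

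Indicaxanthin array 3 stood apart from the other arrays of its group. Over the tested clusters its correlation was 0.768 with indicaxanthin array 1 and 0.756 with array 2. With the arrays of phenylalanine-betaxanthin it was between 0.989 and 0.994. Calls and counts are therefore given with and without it. It belongs to neither side of the comparisons of indoline-betacyanin or phenylalanine-betaxanthin with control, so leaving it out changes the standard error (SE) and the p-value there and not the difference. Yolk genes and the adult collagen gene col-19 divided the arrays the same way. The 6 yolk protein genes averaged 10.01 to 10.07 on the phenylalanine-betaxanthin arrays and 10.09 on indicaxanthin array 3, while the other 7 arrays stood at 1.56 to 3.17. The labelled stage is adult, but the adult collagen gene col-19 was at 2.40 to 5.02 on those 7 arrays, against 9.28 to 9.51 on the others. The 5 larval cuticle markers were not lower as a list on the high-yolk arrays. Their mean was 3.45 to 4.99 with phenylalanine-betaxanthin and 3.86 on indicaxanthin array 3, against 2.29 to 3.28 on the other 7 arrays. Of these 5, rol-6 was low with indoline-betacyanin too (3.84 to 4.07, against 7.04 and 6.74 in control). The authors' deposited tables for indoline-betacyanin and phenylalanine-betaxanthin fit 3 control arrays by their sums of squares, and the level of the third, which is not analysed here as an array, can be worked out from their ratios. By the authors' deposited tables its yolk mean was 10.09 or 10.22. The 2 tables do not give the same levels for this array, so its levels are approximate. For bli-2 it was at 2.54 by the table for indoline-betacyanin and at 1.49 by that for phenylalanine-betaxanthin.

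Phenylalanine-betaxanthin arrays had the lowest levels of the matrix genes and of most mlt genes, apart from indicaxanthin array 3. Against control, 6 of the 10 genes fell (mlt-8, mlt-10, mlt-11, noah-1, noah-2 and fbn-1) and bli-2 rose by limma at an adjusted p under 0.05. That is 7 of 10, where 44.6% of all tested clusters were called in this comparison, 22.3% as higher and 22.3% as lower. The median difference over the 10 genes was -1.78, against -0.05 over all tested clusters. Without indicaxanthin array 3, 9 of the 10 were called, with nas-37 and bli-1 added among those that rose, where 61.0% of all clusters were called (28.5% higher, 32.5% lower).

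The matrix genes come first. The genes noah-1 and noah-2 encode paired transmembrane precuticle proteins with zona pellucida domains. The level of noah-1 was 6.46, 6.45 and 7.16 with phenylalanine-betaxanthin, against 9.54 and 9.63 in control. Every treated array lay below both controls, and the difference was -2.89 (SE 0.71; adjusted p = 0.0186), or 7.43-fold lower. For noah-2 the values were 5.62, 5.87 and 6.36 with phenylalanine-betaxanthin, against 9.11 and 9.25 in control, and again the groups did not overlap. That difference was -3.23 (SE 0.76; adjusted p = 0.0174), or 9.39-fold lower. The fibrillin-like matrix gene fbn-1 stood at 2.94, 3.40 and 3.49 with phenylalanine-betaxanthin, against 5.12 and 5.24 in control. It fell by 1.90 (SE 0.51; adjusted p = 0.0213), with all treated arrays below the controls. Without indicaxanthin array 3 the SE of these 3 genes was 0.21, 0.24 and 0.17, and the adjusted p was 2.71e-07 for noah-1, 3.54e-07 for noah-2 and 1.64e-06 for fbn-1.

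Of the mlt genes, mlt-8 is needed for complete moulting and had the largest fall among the 10. Its level was 5.32, 5.25 and 5.84 with phenylalanine-betaxanthin, against 9.22 and 9.09 in control. The difference was -3.69 (SE 1.16; adjusted p = 0.0319), or 12.9-fold lower, and the SE was 0.17 without indicaxanthin array 3. The gene mlt-11 encodes a secreted protein with Kunitz-type protease inhibitor domains. It measured 4.79, 5.32 and 5.72 with phenylalanine-betaxanthin, against 7.35 and 7.53 in control, and fell by 2.16 (SE 0.64; adjusted p = 0.0272, or 8.34e-06 without indicaxanthin array 3). The gene mlt-10 founded a nematode protein family and its promoter is widely used to report the moulting cycle. Its values were 3.10, 3.12 and 3.29 with phenylalanine-betaxanthin, against 4.81 and 4.84 in control, a fall of 1.65 (SE 0.51; adjusted p = 0.0303, or 0.000219 without indicaxanthin array 3). All treated arrays lay below both controls for each of these mlt genes. The annotation of 13 other clusters also mentions mlt-10, and whether its probes also read other members of that family was not tested.

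No protease or collagen gene among the 10 was called lower. The gene nas-37 encodes an astacin metalloprotease that digests the old cuticle at moulting. It was at 5.32, 5.39 and 5.58 with phenylalanine-betaxanthin, against 4.93 and 5.0 in control, with no overlap. The difference of 0.47 (95% confidence interval 0.02 to 0.91) had an adjusted p of 0.0785, and of 0.0179 without indicaxanthin array 3. Its relative nas-36, also an astacin used in moulting, was low on every array. It read 1.66, 1.78 and 1.69 with phenylalanine-betaxanthin, against 1.87 and 1.78 in control, and the difference of -0.11 (95% confidence interval -0.38 to 0.16; adjusted p = 0.458) was not called with or without that array. These readings lie just above the filter level of 1.52, so a difference in nas-36 would be hard to see on this array.

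The genes bli-1 and bli-2 encode collagens of the struts that join the layers of the adult cuticle. The level of bli-2 was 2.06, 2.39 and 2.54 with phenylalanine-betaxanthin, against 1.55 and 1.62 in control, a rise of 0.74 (SE 0.23; adjusted p = 0.0299, or 0.00536 without indicaxanthin array 3). For bli-1 the arrays gave 2.21, 3.17 and 2.46 with phenylalanine-betaxanthin, against 2.03 and 1.82 in control. Treated arrays lay above the controls in both genes. The control readings of bli-2 lie just above the filter level of 1.52, and those of bli-1 not far above it. Neither gene was tested when the filter was raised to the median of the named clusters, so these rises are seen at low levels only. The difference of 0.69 in bli-1 (SE 0.28) had an adjusted p of 0.068, and of 0.0281 without indicaxanthin array 3.

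**Figure D1:**
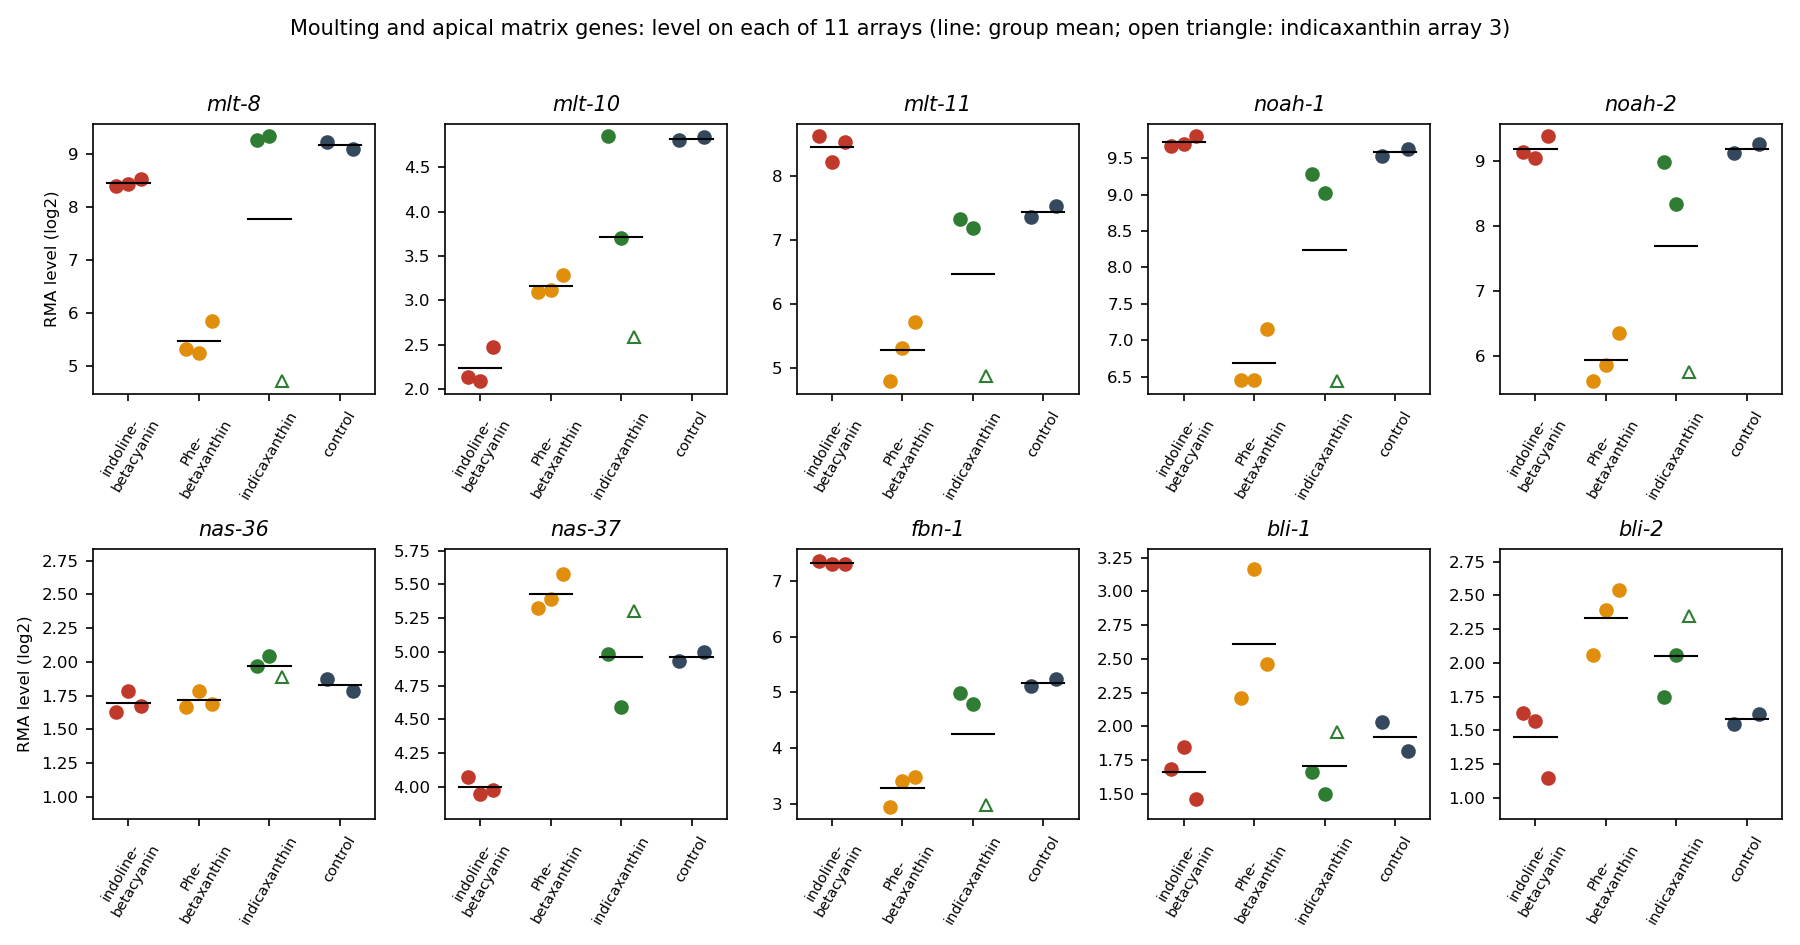
RMA level (log2, y axis, scaled per gene) of each gene on the 11 arrays, by group from left to right: indoline-betacyanin, Phe-betaxanthin (phenylalanine-betaxanthin), indicaxanthin, control. Points are arrays, lines are group means and the open triangle is indicaxanthin array 3, which lies by the phenylalanine-betaxanthin arrays for mlt-8, mlt-11, noah-1, noah-2 and fbn-1, while fbn-1 on the 3 indoline-betacyanin arrays (7.31 to 7.36) lies above all other arrays.

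These calls against control are sensitive to single arrays. With all other arrays kept, none of the 10 genes passed without control 1, without control 2 or without phenylalanine-betaxanthin array 2. Only bli-2 passed without array 1, and 4 of the 10 passed without array 3. Calls over all 20291 tested clusters fell as well, from 9041 to 2625 without array 1, 2569 without array 2 and 4914 without array 3. With indicaxanthin array 3 left out as well, a setting chosen after seeing the data, 7 to 9 of the 10 passed whichever other array was removed. Where that second array was one of phenylalanine-betaxanthin or indoline-betacyanin, 11583 to 12272 of the 20291 clusters were called. Over the fits that left out 1 array, the difference ran from -3.44 to -3.06 for noah-2, from -2.38 to -1.92 for mlt-11 and from 0.41 to 0.89 for bli-1.

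Markers of adult stage and germ line moved with this result. All 6 yolk genes and all 12 oocyte and eggshell genes rose with phenylalanine-betaxanthin against control, and the oocyte mean was 8.48 to 8.67 on the treated arrays, against 2.72 and 2.31 in control. Of 9 sperm genes tested, 4 rose, or 5 without indicaxanthin array 3, while the yolk and oocyte counts were the same. Beside these stand the 22.3% of all clusters called higher and the 22.3% called lower, or 28.5% and 32.5% without indicaxanthin array 3. Of the 8 epidermis markers, 5 fell and 1 rose, or 7 fell and 1 rose without indicaxanthin array 3. Their mean was 5.56 to 5.68 on the treated arrays, against 6.04 and 6.15 in control. The one that rose was the adult collagen gene col-19, and the list shares che-14 and tsp-15 with the wider moulting list below. Of other markers, both adult cuticle genes on the array rose, 4 of 7 neuron genes fell, and of 7 intestine genes 3 fell and 1 rose, in either fit. Of 5 pharynx genes 2 fell, or 3 fell and 1 rose without indicaxanthin array 3. Of 5 body wall muscle genes 1 fell, or 3 fell and 1 rose without that array. Of 5 larval cuticle genes 2 rose and 1 fell, or 3 rose and 1 fell without that array. The part of these shifts in the fall of the matrix genes was not tested, and in whole worms fewer cells of a type and less RNA per cell cannot be told apart.

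By the authors' deposited tables, the third control had the matrix genes low too. Worked out from the authors' deposited table for phenylalanine-betaxanthin, it stood at 6.50 for noah-1, 5.62 for noah-2, 3.23 for fbn-1, 4.79 for mlt-8, 5.39 for mlt-11 and 2.46 for mlt-10. Those levels lie within the range of the treated arrays or below it. In the authors' deposited table the ratio of phenylalanine-betaxanthin over control was 1.31 for nas-37 (p = 0.0446) and 0.243 for noah-2 (p = 0.134). Of the 10 genes nas-37 alone was under 0.05, unadjusted, where 1921 of all 29317 clusters were.

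**Figure D2:**
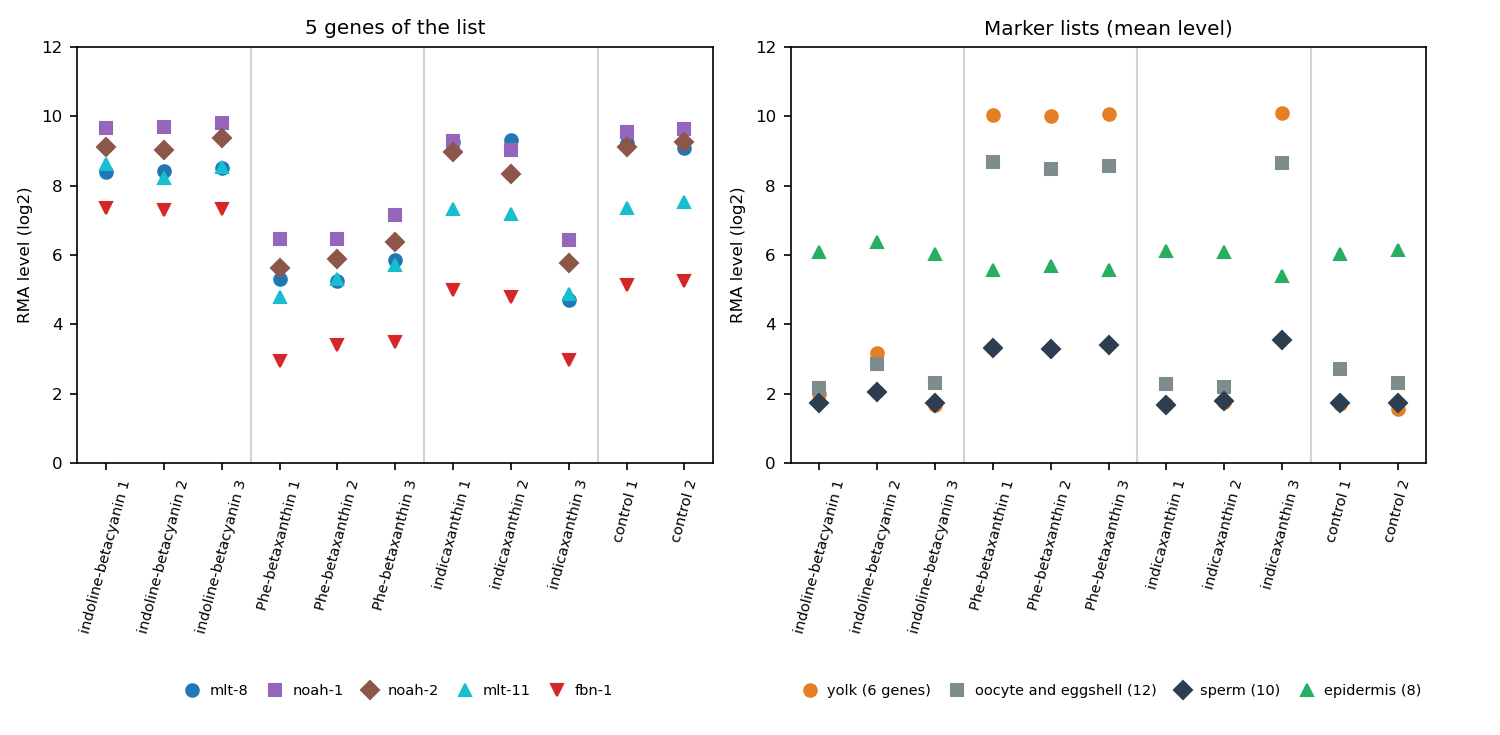
RMA level (log2) on each array, with mlt-8, noah-1, noah-2, mlt-11 and fbn-1 on the left and the mean of 4 marker lists on the right, arrays ordered as indoline-betacyanin, Phe-betaxanthin (phenylalanine-betaxanthin), indicaxanthin, control. The 5 genes are low on the same 4 arrays on which the yolk mean lies at 10.01 to 10.09: the 3 of phenylalanine-betaxanthin and indicaxanthin array 3.

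With indoline-betacyanin, fbn-1 rose and mlt-10 and nas-37 fell against control. Those 3 of 10 genes compare with 17.3% of all tested clusters called in this comparison, 7.97% as higher and 9.37% as lower. The median difference over the 10 genes was -0.13, against 0.02 over all clusters. Without indicaxanthin array 3, mlt-11 rose and mlt-8 fell as well, which made 5 of 10 where 35.4% of all clusters were called (17.1% higher, 18.2% lower).

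The fibrillin-like gene fbn-1 read 7.36, 7.31 and 7.32 with indoline-betacyanin, against 5.12 and 5.24 in control. The arrays of each group lay close together and far from the other group. The rise was 2.15 (SE 0.51; adjusted p = 0.0182), or 4.44-fold, and without indicaxanthin array 3 the SE was 0.17 (adjusted p = 2.55e-06). The precuticle gene noah-1 was at 9.67, 9.70 and 9.81 with indoline-betacyanin, against 9.54 and 9.63 in control. That difference of 0.14 (95% confidence interval -1.47 to 1.75, or -0.31 to 0.59 without indicaxanthin array 3) was not called. Its partner noah-2, at 9.13, 9.04 and 9.38 with indoline-betacyanin, overlapped the controls at 9.11 and 9.25. The noah-2 difference was -0.00 (95% confidence interval -0.52 to 0.52 without indicaxanthin array 3), and its sign turned under other scalings.

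The moulting reporter gene mlt-10 had values of 2.14, 2.09 and 2.48 with indoline-betacyanin, against 4.81 and 4.84 in control. It fell by 2.59 (SE 0.51; adjusted p = 0.0075), which is 6.01-fold lower, with no overlap between the groups, and the adjusted p was 2.06e-05 without indicaxanthin array 3. By the authors' deposited table for this compound, the third control was at 2.43 for mlt-10 (2.46 by that for phenylalanine-betaxanthin), inside the range of the treated arrays but near its upper end. The astacin gene nas-37 was at 4.08, 3.95 and 3.98 with indoline-betacyanin, against 4.93 and 5.0 in control, and fell by 0.96 (SE 0.20; adjusted p = 0.00893, or 0.000417 without indicaxanthin array 3). For nas-37 the third control, by the authors' deposited table, was at 5.0, beside the 2 others, or at 5.18 by that for phenylalanine-betaxanthin. For fbn-1 the third control in the authors' deposited table was at 3.43, farther below the treated arrays than the 2 others.

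The protease inhibitor gene mlt-11 stood at 8.62, 8.22 and 8.53 with indoline-betacyanin, against 7.35 and 7.53 in control. Every treated array was above the controls, but the difference of 1.02 had an adjusted p of 0.371 (SE 0.64), and of 0.00529 without indicaxanthin array 3 (SE 0.23). Levels of mlt-8 were 8.38, 8.44 and 8.52 with indoline-betacyanin, against 9.22 and 9.09 in control. All treated arrays lay below the controls, and the difference of -0.71 had an adjusted p of 0.798, and of 0.00792 without that array. The third control of the authors' deposited table was at 5.01 for mlt-8, so there the ratio of treated over control was 1.59 (p = 0.638).

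The remaining genes gave no call with indoline-betacyanin, with or without indicaxanthin array 3. The struts' collagen genes read 1.68, 1.85 and 1.46 for bli-1 with indoline-betacyanin, against 2.03 and 1.82 in control, and 1.63, 1.57 and 1.15 for bli-2 with indoline-betacyanin, against 1.55 and 1.62 in control. The groups overlapped in both, with differences of -0.26 (95% confidence interval -0.88 to 0.36) for bli-1 and -0.14 (-0.65 to 0.38) for bli-2. The moulting astacin nas-36 read 1.63, 1.78 and 1.67 with indoline-betacyanin, against 1.87 and 1.78 in control, and its difference was -0.13 (-0.40 to 0.14). The signs for nas-36 and bli-2 turned when arrays were centred on their median.

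The 2 controls carry much of this comparison too. Without control 1 none of the 10 genes passed, with an adjusted p of 0.0578 for mlt-10, 0.056 for nas-37 and 0.122 for fbn-1. Without control 2 only mlt-10 passed, with 0.059 for nas-37 and 0.0825 for fbn-1. Leaving out any 1 indoline-betacyanin array put fbn-1 at 0.0525 to 0.0541, while mlt-10 and nas-37 stayed called. In those fits 2555 to 2623 of the 20291 clusters were called. With indicaxanthin array 3 also left out, 3 to 5 of the 10 passed whichever further array was removed. Where that further array was one of indoline-betacyanin or phenylalanine-betaxanthin, 6119 to 6975 of the 20291 clusters were called. In the authors' deposited table, which has 3 controls, the 3 genes had unadjusted p-values under 0.05: 0.0199 for fbn-1 (ratio 6.65), 0.0405 for mlt-10 (ratio 0.289) and 0.0117 for nas-37 (ratio 0.509). There 4839 of all 29317 clusters were under 0.05.

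Yolk and germ-line markers gave no call with this compound over all arrays, while intestine and pharynx markers did. Beside the counts below stand the 7.97% of all clusters called higher and the 9.37% called lower. Without indicaxanthin array 3 these shares were 17.1% and 18.2%. None of the yolk, oocyte, sperm or epidermis markers passed against control (1 yolk gene, 1 sperm gene and 2 epidermis genes rose, and 1 sperm gene and 1 epidermis gene fell, without indicaxanthin array 3), and the yolk mean was 2.00, 3.17 and 1.67 on the treated arrays, against 1.71 and 1.56 in control. Of 5 larval cuticle markers 1 fell, or 1 fell and 1 rose without indicaxanthin array 3. Among them rol-6, named after its values were seen, read 3.88, 3.84 and 4.07 on the treated arrays, against 7.04 and 6.74 in control. The list was mixed: col-138 read 2.65, 3.33 and 3.60 on the treated arrays, against 1.89 and 1.97 in control. Treated arrays also lay above the controls for col-49 and below them for col-38, and for col-63 they overlapped. Of 7 intestine markers 4 fell, or 4 fell and 1 rose without that array. Of 5 pharynx markers tested 3 fell and 1 rose, or 4 fell and 1 rose without it. None of 7 neuron markers passed, or 4 rose without it. Of 5 body wall muscle markers 1 rose, or 2 rose without that array. The part of these shifts in the changes of fbn-1, mlt-10 and nas-37 was not tested.

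**Figure D3:**
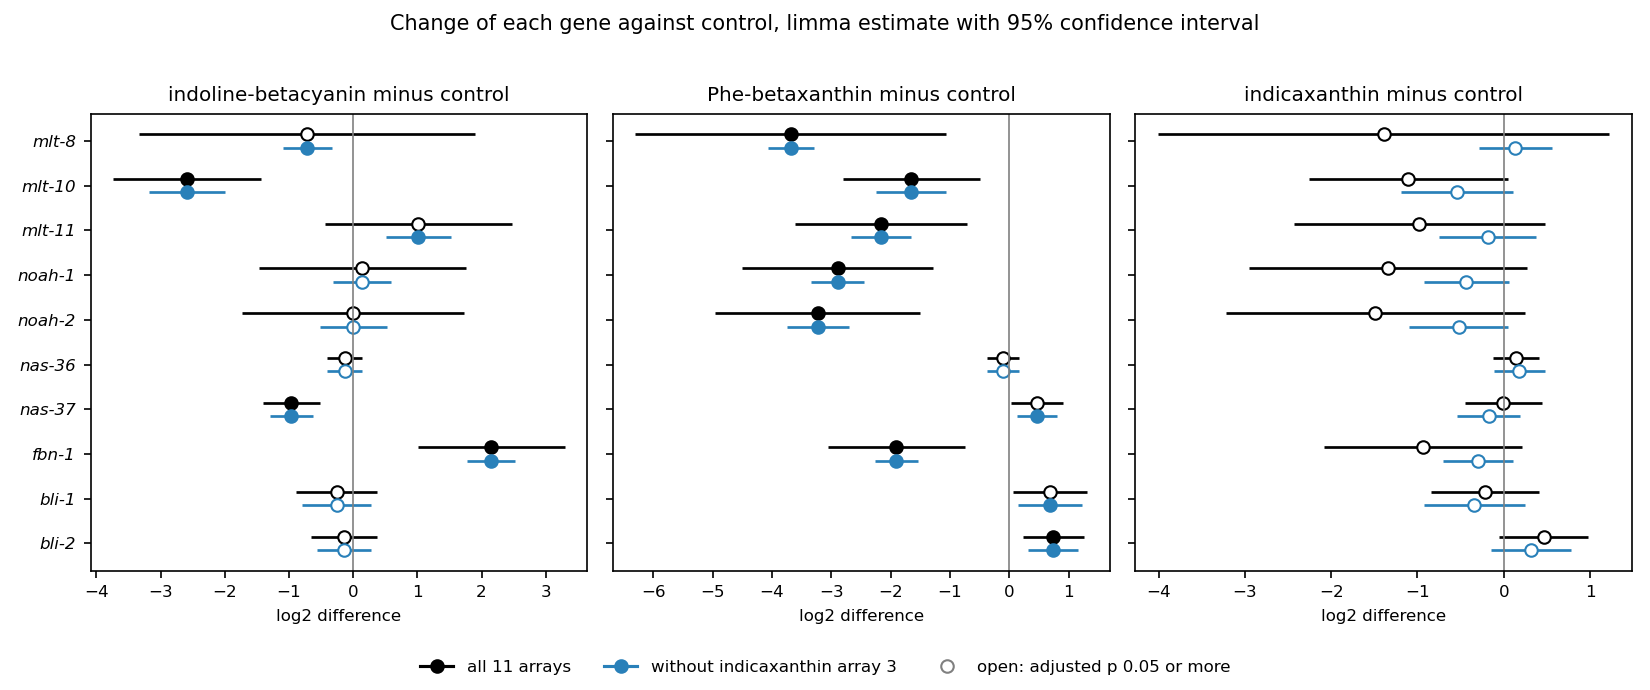
Difference from control on the log2 scale (x axis, treated minus control) for each gene, with 95% confidence intervals, for indoline-betacyanin, Phe-betaxanthin (phenylalanine-betaxanthin) and indicaxanthin. Black is the fit of all 11 arrays and blue the fit without indicaxanthin array 3, filled points have an adjusted p under 0.05, and the intervals of mlt-8, noah-1 and noah-2 shrink most when that array is left out.

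With indicaxanthin none of the 10 genes was called against control by limma, where 6.20% of all clusters were called (0.315% higher, 5.88% lower). None had an unadjusted p under 0.05 either, and both counts were also 0 without array 3, where 10.5% of all clusters were called (3.04% higher, 7.45% lower). The median difference over the 10 genes was -0.95, against 0.05 over all clusters, and -0.24, against 0.06, without array 3.

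Array 3 made the group wide. The moulting gene mlt-8 read 9.25, 9.33 and 4.71 with indicaxanthin, against 9.22 and 9.09 in control. Arrays 1 and 2 lay just above the controls and array 3 lay far below, at a difference of -4.58 from their mean. The precuticle gene noah-1 read 9.29, 9.02 and 6.43 with indicaxanthin, against 9.54 and 9.63 in control, and noah-2 read 8.98, 8.34 and 5.76 with indicaxanthin, against 9.11 and 9.25 in control. In these 2 genes all indicaxanthin arrays were below the controls, arrays 1 and 2 by much less than array 3. For fbn-1 the values were 4.99, 4.78 and 2.97 with indicaxanthin, against 5.12 and 5.24 in control, and for mlt-11 they were 7.32, 7.18 and 4.88 with indicaxanthin, against 7.35 and 7.53 in control. The same order held in both.

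Without array 3 the confidence intervals of the difference from control were narrow enough to bound these genes. The interval was -0.29 to 0.55 for mlt-8, -0.93 to 0.06 for noah-1, -1.09 to 0.05 for noah-2, -0.70 to 0.11 for fbn-1 and -0.75 to 0.38 for mlt-11. None reached the fall seen with phenylalanine-betaxanthin. For mlt-10, at 4.85, 3.70 and 2.59 with indicaxanthin, against 4.81 and 4.84 in control, arrays 1 and 2 themselves disagreed. It was the only gene called when indicaxanthin array 1 was left out (adjusted p = 0.0181).

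The protease and collagen genes gave no call with indicaxanthin. Levels of nas-37 were 4.98, 4.59 and 5.30 with indicaxanthin, against 4.93 and 5.0 in control, and those of nas-36 were 1.97, 2.04 and 1.89 with indicaxanthin, against 1.87 and 1.78 in control. The strut collagen bli-1 was at 1.67, 1.50 and 1.96 with indicaxanthin, against 2.03 and 1.82 in control, and bli-2 was at 1.75, 2.06 and 2.35 with indicaxanthin, against 1.55 and 1.62 in control. Groups overlapped for nas-37 and bli-1, while all indicaxanthin arrays of nas-36 and bli-2 lay above the controls. The largest of these differences was 0.47 for bli-2 (95% confidence interval -0.05 to 0.98; adjusted p = 0.353). The authors' deposited table for indicaxanthin, which lists only clusters with an unadjusted p under 0.05, holds mlt-8 alone of the 10 genes, with a ratio of 1.15 (p = 0.041). By its sums of squares that table fits 2 arrays against 2, and it does not say which. Its log2 ratio of 0.20 for mlt-8 stands beside a difference of 0.13 here without array 3.

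The compounds were then set against each other at the matched dose of 25 uM and 48 h. All 3 pairs were tested, each adjusted over all tested clusters. Indicaxanthin and phenylalanine-betaxanthin are betaxanthins that differ in the amino acid joined to betalamic acid, proline in one and phenylalanine in the other, while the third compound is a betacyanin built on indoline carboxylic acid.

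Indoline-betacyanin and phenylalanine-betaxanthin differed most, in a comparison that uses neither the controls nor indicaxanthin array 3 in its difference. Of the 10 genes 8 were called, where 47.3% of all clusters were called (23.5% higher, 23.8% lower). The matrix genes and 2 of the mlt genes were higher with indoline-betacyanin, by 4.05 for fbn-1 (SE 0.45; adjusted p = 0.000415), 3.23 for noah-2 (SE 0.68; adjusted p = 0.0062), 3.18 for mlt-11 (adjusted p = 0.00336), 3.04 for noah-1 (adjusted p = 0.00599) and 2.97 for mlt-8 (adjusted p = 0.0411). In fold terms fbn-1 was 16.6-fold higher with indoline-betacyanin than with phenylalanine-betaxanthin. The astacin nas-37 and the collagens bli-1 and bli-2 were lower with indoline-betacyanin, with differences of -1.43 for nas-37 (adjusted p = 0.000644), -0.95 for bli-1 (adjusted p = 0.0128) and -0.88 for bli-2 (adjusted p = 0.00837). By the readings above, the fbn-1 arrays of the 2 compounds lay far apart, and the bli-1 arrays less so. The difference for mlt-10 was -0.93 (95% confidence interval -1.96 to 0.10; adjusted p = 0.125), with an adjusted p of 0.00517 without indicaxanthin array 3, where 9 of 10 genes and 59.0% of all clusters were called (29.7% higher, 29.3% lower). Only nas-36 gave no call in either fit, at -0.02 (95% confidence interval -0.26 to 0.22). Over the 11 fits that left out 1 array, 7 to 9 of the 10 genes passed. The mlt-8 call held in 3 of them, and its adjusted p was 0.0558 without the filter on low values, while the 7 other called genes passed in all 11. Where the array left out was one of these 2 compounds, 7277 to 7865 of the 20291 clusters were called. Stage markers differ here as well: the yolk mean was 1.67 to 3.17 with indoline-betacyanin, against 10.01 to 10.07 with phenylalanine-betaxanthin, and their part in these differences was not tested.

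Between indoline-betacyanin and indicaxanthin, 2 of the 10 genes were called, where 14.2% of all clusters were called (9.78% higher, 4.42% lower). The matrix gene fbn-1 was higher with indoline-betacyanin by 3.08 (SE 0.45; adjusted p = 0.00255) and the astacin nas-37 was lower, at -0.96 (SE 0.18; adjusted p = 0.00725). Without indicaxanthin array 3 there were 5 calls, where 27.8% of all clusters were called (14.4% higher, 13.5% lower): fbn-1 at 2.45 and mlt-11 at 1.20 were higher with indoline-betacyanin, while mlt-10 at -2.04, mlt-8 at -0.85 and nas-37 at -0.79 were lower. For mlt-8 that array turned the sign, since the difference was 0.68 with it (95% confidence interval -1.66 to 3.02). The difference for noah-1 was 1.48 (95% confidence interval 0.04 to 2.92; adjusted p = 0.173), and 0.57 without array 3 (adjusted p = 0.0588). Markers of other tissues moved with this comparison: 4 of 7 neuron genes and 2 of 5 body wall muscle genes were higher with indoline-betacyanin, 3 of 7 intestine genes were lower, and of 5 pharynx genes 4 were lower and 1 higher. Without indicaxanthin array 3 these counts were the same, except that 4 intestine genes were lower and 1 higher. Their part in the fbn-1 and nas-37 differences was not tested.

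Between phenylalanine-betaxanthin and indicaxanthin, none of the 10 genes and none of all tested clusters was called (0%), although 5 of the 10 had an unadjusted p under 0.05. How many of all clusters were under that unadjusted level was not counted. The differences were wide, such as -2.29 for mlt-8 (95% confidence interval -4.63 to 0.05) and -1.74 for noah-2 (-3.29 to -0.19). Without indicaxanthin array 3, 8 of the 10 genes were called, where 55.1% of all clusters were called (26.6% higher, 28.5% lower). Lower with phenylalanine-betaxanthin were mlt-8 at -3.82, noah-2 at -2.71, noah-1 at -2.46, mlt-11 at -1.98, fbn-1 at -1.61 and mlt-10 at -1.11. Higher were bli-1 at 1.03 and nas-37 at 0.64. For this pair of betaxanthins 1 array decides every call.

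The wider moulting and apical matrix genes were read from a list of 54 others, of which 53 were tested (nas-6 did not pass the filter). With phenylalanine-betaxanthin against control, 29 fell and 3 rose, where 22.3% of all clusters were called each way, and the median was -1.22 against -0.05 over all clusters. When indicaxanthin array 3 was left out, 39 fell and 3 rose, where 32.5% of all clusters were called lower and 28.5% higher. The counts by role below stand against the same shares, and those for indoline-betacyanin against control stand against the shares given next. With indoline-betacyanin 2 rose and 1 fell, where 7.97% of all clusters were called higher and 9.37% lower. Without that array 11 genes were called each way (17.1% and 18.2% of all clusters), and the median was 0.07 against 0.02 over all clusters. With indicaxanthin none passed by limma, where 0.315% of all clusters were called higher and 5.88% lower, although 2 had an unadjusted p under 0.05. The share of all clusters at that unadjusted level was not counted. Without array 3 mlt-3, bli-5, tsp-15 and cut-3 rose (4 genes, named after their values were seen) and 0 fell. In that fit 3.04% of all clusters were called higher and 7.45% lower.

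Among the genes listed as regulators of moulting, 11 of 12 fell with phenylalanine-betaxanthin, with or without indicaxanthin array 3. The casein kinase gene kin-20 fell by 1.22 (SE 0.27; adjusted p = 0.0142), the Blimp-type repressor gene blmp-1 by 2.14 (SE 0.50; adjusted p = 0.0166) and pan-1, which encodes a leucine-rich repeat protein needed for moulting, by 2.60 (SE 0.68; adjusted p = 0.0207). The exception was the nuclear receptor gene nhr-23, at -0.36 (95% confidence interval -0.72 to -0.01; adjusted p = 0.0844). With indoline-betacyanin the only regulator called over all arrays was myrf-2, a membrane-bound transcription factor of the Myrf family, and without indicaxanthin array 3 there were 4 (myrf-2 and pan-1 higher, lin-42 and bed-3 lower). It read 7.0, 6.87 and 6.82 with indoline-betacyanin, against 5.42 and 5.74 in control, and rose by 1.31 (SE 0.37; adjusted p = 0.0409). In the direct test of the compounds, 11 of the 12 regulators were higher with indoline-betacyanin than with phenylalanine-betaxanthin, bed-3 being the exception. In that test 23.5% of all clusters were called higher and 23.8% lower.

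Genes for sterol uptake and endocytosis, which moulting needs, were mixed. With phenylalanine-betaxanthin the megalin-like receptor gene lrp-1 fell by 1.01 (SE 0.25; adjusted p = 0.0186) and che-14, of the Dispatched family, by 0.97 (SE 0.31; adjusted p = 0.035), while the endocytic adaptor gene dab-1 rose by 0.58 (SE 0.13; adjusted p = 0.0143). The other 6 of the 9 were not called, and without indicaxanthin array 3 the counts were 4 lower and 1 higher. With indoline-betacyanin lrp-1 stood at 5.38, 5.36 and 5.36, against 4.40 and 4.52 in control, and rose by 0.91 (SE 0.25; adjusted p = 0.0344). It was the only call of the 9 there, and 5 of the 9 rose without indicaxanthin array 3.

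Of 8 genes for proteases and processing, 4 fell with phenylalanine-betaxanthin (6 without indicaxanthin array 3) and none rose. They included acn-1, an angiotensin-converting-enzyme-like protein without the catalytic residues, by 3.10 (SE 0.87; adjusted p = 0.0235), the astacin gene nas-38 by 2.79 (SE 0.89; adjusted p = 0.0337) and the cathepsin Z gene cpz-1 by 1.50 (SE 0.37; adjusted p = 0.0185). Of 5 genes of the inhibitor and cross-linking group, only the dual oxidase gene bli-3 passed, with a fall of 1.86 (SE 0.50; adjusted p = 0.0214), and all 5 fell without indicaxanthin array 3. Neither group had a call with indoline-betacyanin over all arrays, where 4 of the 8 protease genes had an unadjusted p under 0.05. The share of all clusters under that unadjusted level was not counted. In the fit that leaves out indicaxanthin array 3, 3 of the 8 fell (nas-7, nas-38 and cpl-1), and of the 5 inhibitor and cross-linking genes bli-3 rose while bli-5 and tsp-15 fell.

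In the group of 19 other apical matrix genes, 11 fell and 2 rose with phenylalanine-betaxanthin, or 13 and 2 without indicaxanthin array 3. The precuticle lipocalin gene lpr-3 fell by 3.97 (SE 0.94; adjusted p = 0.0174), the extracellular matrix gene dex-1 by 3.19 (SE 0.75; adjusted p = 0.0173) and the leucine-rich repeat gene let-4 by 3.14 (SE 0.80; adjusted p = 0.0199). The 2 that rose, named here after their values were seen, were the collagen gene bli-6, by 5.04 (SE 1.32; adjusted p = 0.0208), and the leucine-rich repeat gene egg-6, by 2.64 (SE 0.69; adjusted p = 0.0209). With indoline-betacyanin the only call in this group over all arrays was the cuticlin gene cut-4, and without indicaxanthin array 3 there were 3 higher and 4 lower. It was at 2.84, 3.42 and 3.46 with indoline-betacyanin, against 6.23 and 6.11 in control, and fell by 2.93 (SE 0.32; adjusted p = 0.000298). In the direct test of indoline-betacyanin against phenylalanine-betaxanthin, 32 of the 53 genes were higher and 3 lower with indoline-betacyanin, the lower ones being egg-6, bli-6 and cut-4. All clusters called were 23.5% higher and 23.8% lower. Leaving out indicaxanthin array 3 made that 39 and 4, where 29.7% and 29.3% of all clusters were called.

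**Figure D4:**
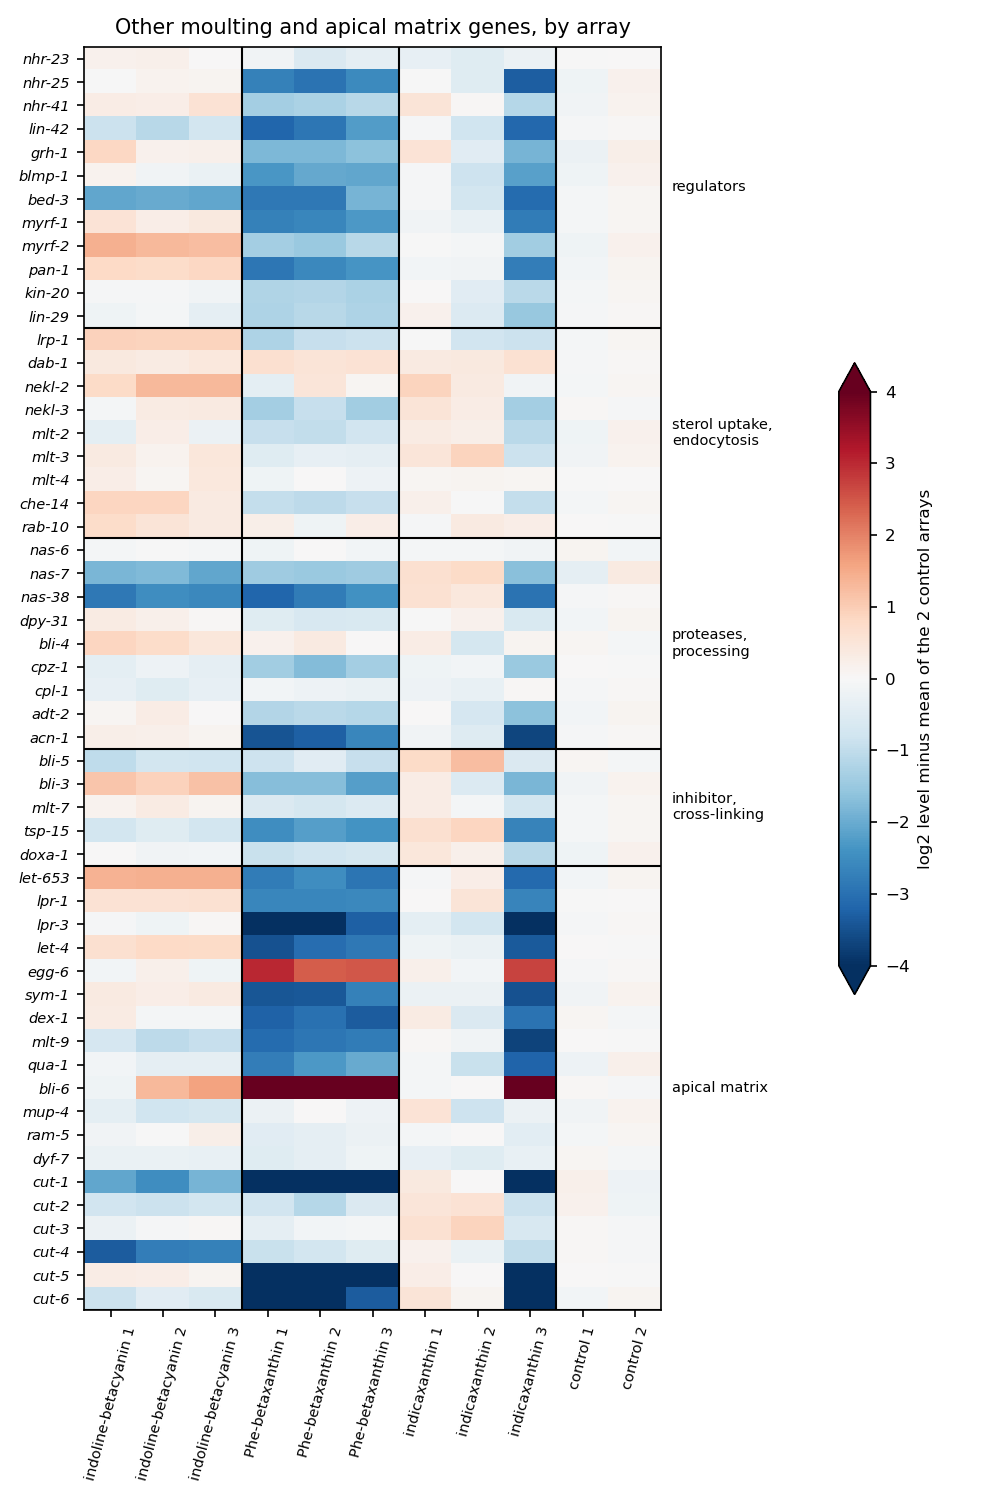
Level of the 54 other moulting and apical matrix genes on each array minus the mean of the 2 control arrays (log2, colour scale ending at 4 in either direction), in role groups from top to bottom and with groups of arrays from left to right as indoline-betacyanin, Phe-betaxanthin (phenylalanine-betaxanthin), indicaxanthin and control. Most rows are blue on the phenylalanine-betaxanthin arrays and on indicaxanthin array 3, while bli-6 and egg-6 are red there and cut-4 is most blue on the indoline-betacyanin arrays.

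The 10 genes did not form a single pattern. The root mean square difference between 2 genes' log2 levels on the 11 arrays, each centred on its own mean, was used as a measure of likeness, and it is read beside each gene's own spread about its mean, since a gene that varies little is near to any other flat gene. The pair noah-1 and noah-2 lay at 0.167, with own spreads of 1.42 for noah-1 and 1.53 for noah-2. Both were close to genes outside the 10, noah-1 to myrf-1 (0.171), a transcription factor gene of the Myrf family, and noah-2 to acn-1 (0.174). The nearest of the 10 to mlt-11 was noah-1 (0.363) and the nearest to mlt-8 was noah-2 (0.564). For fbn-1 the nearest was mlt-11 (0.493), and its nearest gene elsewhere was T01D3.3 (0.193), which read 5.80, 5.60 and 5.71 with indoline-betacyanin, against 3.36 and 3.81 in control.

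The genes with other patterns had other neighbours. For mlt-10 none of the 10 was closer than nas-37 (0.926, where its own spread was 1.01), and its nearest gene was ZK1025.2 (0.268). The astacin nas-37, with an own spread of 0.567, lay nearest to ccf-1 (0.0896), which encodes a subunit of the deadenylase complex, and the collagen bli-2 to mboa-2 (0.143), a gene of the membrane-bound acyltransferase family. For the low-level genes the neighbours were tct-1 for nas-36 (0.0598), whose own spread was only 0.126, and the pseudogene R06B10.2 for bli-1 (0.179, own spread 0.470). For mlt-8 and mlt-11 they were F58H1.2 (0.202) and W03G11.4 (0.202). Over the 10 arrays without indicaxanthin array 3 the nearest gene changed to dpy-9 for mlt-8 (0.152), pcp-3 for mlt-10 (0.261), acn-1 for noah-1 (0.146) and C46H11.6 for bli-1 (0.169), and was the same for the other 6 genes. These likenesses are descriptions over arrays from 4 groups, which share their stage differences.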

How the data were processed

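For every cluster and array the authors deposited a log2 value made with RMA (background correction, quantile normalization and probe summary), per the submitters' processing notes. The authors' deposited tables of each compound against control hold a linear ratio and an unadjusted p-value for each cluster, per the file headers, with scores that are a signed fold change, an F value and sums of squares. They were used for names and for the values credited to them. The sources used here do not give the array model, annotation release, genome build or the tables' software. Of the 29317 clusters, 27055 had a gene name, 26811 of these matched NCBI RefSeq names (WBcel235), and the 2262 without a name were left out.

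limma 3.58.1 (R 4.3.3; lmFit and eBayes) was run on the deposited values of all 11 arrays in 1 model of 4 groups, for 6 comparisons, each adjusted by the Benjamini-Hochberg method over the 20291 named clusters with a mean above their 25th percentile (1.523). Residual degrees of freedom were 7, with 1.93 added by the prior. Calls are an adjusted p under 0.05, and standard errors, 95% confidence intervals and adjusted p-values are limma's. Tested on simulated data for indoline-betacyanin against control, the script recovered 177 of 200 changed clusters. The simulated spread was capped, all planted changes had 1 size and no simulated array stood apart. That recovery checks the script and does not measure the sensitivity on the real arrays. Arrays have no counting error, so their number limits the precision. Where a gene had several clusters, the one of highest mean stood for it.

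All 10 genes are given. From each role group of the wider list and each comparison with control, up to 3 genes with the smallest p-values among those called are named, and for each of the 10 genes the nearest tested gene and the nearest of the 10. The members and lists were chosen with earlier results of these data known. Alternatives were to block on the trial number, to drop the filter or raise it to the median, to centre or quantile-normalize the arrays again, to weight the arrays, to use a trended and robust eBayes, to keep only the compared groups, and to leave out each array. Leaving out indicaxanthin array 3 with a second array, and for likeness alone, was added after seeing the data. Arrays with the same trial number did not deviate together (correlations of -0.292 to 0.101, or -0.120 to 0.172 without indicaxanthin array 3), and by the rule used, every pair above 0.1, the numbers do not pair them. The third control was worked out from the authors' ratios and the arrays at hand, since the sum of squares between groups was 1.5 times the squared log2 ratio, as for 3 arrays against 3. For indicaxanthin that quotient was 1, as for 2 against 2.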

Additional observations from a re-analysis of the deposited data

How the results depend on the processing

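Counts of the 10 genes called under other settings were within 1.5 times the count given, except these. For indoline-betacyanin against control it was 5 with only those groups in the fit. For phenylalanine-betaxanthin against control it was 1 with the trial number as a replicate block, which left noah-2, and that block changed no other count by over 1.5 times (3, 0, 2, 7 and 0 in the other comparisons). For indoline-betacyanin against indicaxanthin it was 4 with array weights and 1 with only those groups. For phenylalanine-betaxanthin against indicaxanthin it was 8 with array weights. Leaving out 1 array, or indicaxanthin array 3 with a second one, gave 0 to 5 for indoline-betacyanin against control, 0 to 9 for phenylalanine-betaxanthin against control, 0 to 1 for indicaxanthin against control, 2 to 6 for indoline-betacyanin against indicaxanthin, 7 to 9 for indoline-betacyanin against phenylalanine-betaxanthin and 0 to 9 for phenylalanine-betaxanthin against indicaxanthin. Calls over all clusters moved as well, for example from 9041 to 2569 for phenylalanine-betaxanthin against control without its array 2. The cause was not tested.

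Over the single genes and comparisons, settings other than leaving out arrays gave 419 values with the same direction and call, 24 newly called, 9 no longer called and 10 with the sign turned. Those were noah-2 with indoline-betacyanin against control (0.22 with the block, 0.0596 after quantile normalization, 0.18 centred, 0.0387 with array weights), the centred values of nas-36 (0.0482) and bli-2 (0.0401) in the same comparison, of nas-36 with phenylalanine-betaxanthin (0.0635) and of nas-37 with indicaxanthin (0.16), and with array weights mlt-8 with indicaxanthin (0.0218) and mlt-8 for indoline-betacyanin against indicaxanthin (-0.72). With arrays left out, signs turned within these ranges: against control, noah-2 (-0.10 to 0.0717) and bli-2 (-0.23 to 0.0113) with indoline-betacyanin, and mlt-8 (-2.18 to 0.20), mlt-10 (-1.67 to 0.03) and nas-37 (-0.37 to 0.18) with indicaxanthin; for indoline-betacyanin against indicaxanthin, mlt-8 (-0.88 to 1.46) and bli-1 (-0.15 to 0.18); nas-36 for indoline-betacyanin against phenylalanine-betaxanthin (-0.0609 to 0.0185); and mlt-10 for phenylalanine-betaxanthin against indicaxanthin (-1.68 to 0.0201).

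Centring arrays moved the median of all tested clusters from 0.02 to 0.20 for indoline-betacyanin, from -0.05 to 0.12 for phenylalanine-betaxanthin and from 0.05 to 0.21 for indicaxanthin, all against control. Clusters higher and lower were then 2513 and 1523, in place of 1617 and 1902, for indoline-betacyanin, 5727 and 3268, in place of 4517 and 4524, for phenylalanine-betaxanthin, and 213 and 965, in place of 64 and 1194, for indicaxanthin. All clusters called against control numbered 3519 for indoline-betacyanin (7459 with array weights, 7308 with only those groups, 2210 with the filter at the median), 9041 for phenylalanine-betaxanthin (3658 with the block) and 1258 for indicaxanthin (487 with the filter at the median, 212 with only those groups). Between compounds they numbered 2882 for indoline-betacyanin against indicaxanthin (5579 with array weights, 954 with only those groups) and 0 for phenylalanine-betaxanthin against indicaxanthin (11307 with array weights). The 2 control arrays, and levels near the filter for nas-36, bli-1 and bli-2, limit what these values can show.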
